A study of Mus musculus with 6 samples.

Results

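A set of 10 genes of fat storage was followed in mouse intestine, namely the adipokines Adipoq and Cfd, the perilipins Plin1, Plin2 and Plin3, the droplet fusion proteins Cidec and Cidea, the lipases Pnpla2 and Lipe, and the fatty acid binding protein Fabp4. They were taken by symbol from the deposited normalised count table, and all 10 were found among its 20312 rows. The table holds RNA-seq of intestine at 5 months of age from animals of strain 129. Of its 6 libraries, 3 came from Apc min/+ mice (control) and 3 from mice that were Apc min/+ and Sirt7 -/- (knockout). Every animal therefore carried the Min allele of Apc, which predisposes to intestinal adenomas, and neither genotype was compared with an Apc wild-type animal. The stretch of intestine, the presence of tumour and the attached mesentery are not given in the labels, nor is it stated that each library is a separate animal, so the p-values measure only the spread between these libraries, which may be technical.

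Fat is kept in cells as droplets of triglyceride under a coat of perilipins. Plin1 is the coat protein of adipocytes, whereas Plin2 and Plin3 coat droplets in many cells, including enterocytes that absorb dietary fat. CIDE proteins move lipid from small to large droplets, and breakdown begins with the triglyceride lipase encoded by Pnpla2, followed by the hormone-sensitive lipase encoded by Lipe. Adipoq encodes adiponectin and Cfd encodes adipsin, which is complement factor D, and both are secreted by adipocytes. From such general knowledge, Adipoq, Cfd, Cidec, Cidea and Plin1 were listed as adipocyte genes, Lipe, Pnpla2, Plin2 and Plin3 as genes that enterocytes also express, and Fabp4 as shared by adipocytes, capillary endothelium and macrophages.

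Upstream sequences are shown for the 3 genes that were nearly lost in knockout and for both annotated starts of Cidec, which was grouped with them but stayed abundant. The letters are RefSeq windows on GRCm38.p6, written 5′ to 3′ on the gene's strand and ending before the start site or before the first base annotated as exon. Capitals mark the CCAAT box (CCAAT) or the letters TTGCNNAA, a C/EBP-type motif, on either strand.
Adipoq (chr16:23146286-23146535, plus strand): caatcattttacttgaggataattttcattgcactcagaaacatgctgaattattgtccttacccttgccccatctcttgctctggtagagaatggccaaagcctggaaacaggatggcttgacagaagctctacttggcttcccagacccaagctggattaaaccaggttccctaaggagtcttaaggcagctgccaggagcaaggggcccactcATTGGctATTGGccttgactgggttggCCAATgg
Cfd (chr10:79890603-79890852, plus strand): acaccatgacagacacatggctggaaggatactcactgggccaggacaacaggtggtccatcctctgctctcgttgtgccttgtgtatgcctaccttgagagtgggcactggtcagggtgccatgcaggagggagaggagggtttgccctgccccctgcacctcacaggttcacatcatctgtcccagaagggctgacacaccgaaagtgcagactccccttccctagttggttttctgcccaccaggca
Plin1 (chr7:79732904-79733026, minus strand): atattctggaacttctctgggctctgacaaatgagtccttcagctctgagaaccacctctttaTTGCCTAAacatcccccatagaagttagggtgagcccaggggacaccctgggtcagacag
Cidec, start farther upstream (chr6:113435761-113436010, minus strand): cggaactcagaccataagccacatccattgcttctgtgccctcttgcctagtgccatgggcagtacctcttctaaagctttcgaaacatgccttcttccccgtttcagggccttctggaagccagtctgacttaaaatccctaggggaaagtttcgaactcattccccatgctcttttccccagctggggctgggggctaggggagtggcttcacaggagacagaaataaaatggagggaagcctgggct
Cidec, start inside the gene (chr6:113434765-113435014, minus strand): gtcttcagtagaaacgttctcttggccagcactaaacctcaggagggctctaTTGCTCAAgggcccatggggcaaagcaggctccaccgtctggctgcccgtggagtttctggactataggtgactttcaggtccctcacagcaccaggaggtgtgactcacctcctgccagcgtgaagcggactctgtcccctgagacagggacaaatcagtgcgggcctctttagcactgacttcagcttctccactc

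RefSeq windows of 300 bases were searched for 8 of the 10 genes. The Adipoq window held 3 CCAAT boxes, and 37.4% of all 32851 promoter windows held at least 1. The C/EBP-type letters stood in the Plin1 window and in the inner Cidec window, and in 10.8% of all windows. The Plin1 window held a further match after its printed stretch, and 2 windows of other members, those of Plin2 and Plin3, also held a CCAAT box. Also searched on both strands were the nuclear receptor half-site AGGTCA (in the Plin2 window and 16.3% of all), the E-box CACGTG (in the Plin2 and Lipe windows and 7.15% of all), the TATA box TATAAA (in none of the members' windows and 13.6% of all) and the DR1 element, which repeats the half-site after a gap of 1 base and is bound by PPARG with its RXR partner (in none and 0.0396% of all). The Cfd window and the outer Cidec window held none of these letters. A DR1 element would contain half-sites, and no other overlap occurred among the matches. The motifs were picked after the members' values were seen, and the C/EBP-type letters were added after the first search had found nothing for Cfd, Plin1 and Cidec, so the matches are descriptions of these windows alone.

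The members fell into 3 patterns. Adipoq, Cfd and Plin1 dropped to between 1.65% and 5.20% of the control mean. Cidec, Lipe, Plin3, Fabp4, Plin2 and Pnpla2 were lower too but kept between 44.7% and 78.6% of it. Cidea was the sole member that was higher in knockout. These members were chosen by gene name with their fold changes in this same contrast in view, so their differences are given as a description and no p-value is printed for them. All 10 passed the limma threshold over all genes (an adjusted p under 0.05), 9 lower and 1 higher, where 30.9% of the 16600 genes tested passed as lower and 31.6% as higher. The control and knockout libraries did not overlap for any of the 10, as for 66.5% of all genes tested (33.1% lower and 33.5% higher in knockout). Adipoq, Cfd and Plin1 met the filter on low values through the control libraries, and Plin1 was under 10 in every knockout library. Cidea met it through the knockout libraries. Nothing is read from these counts.

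**Figure D1:**
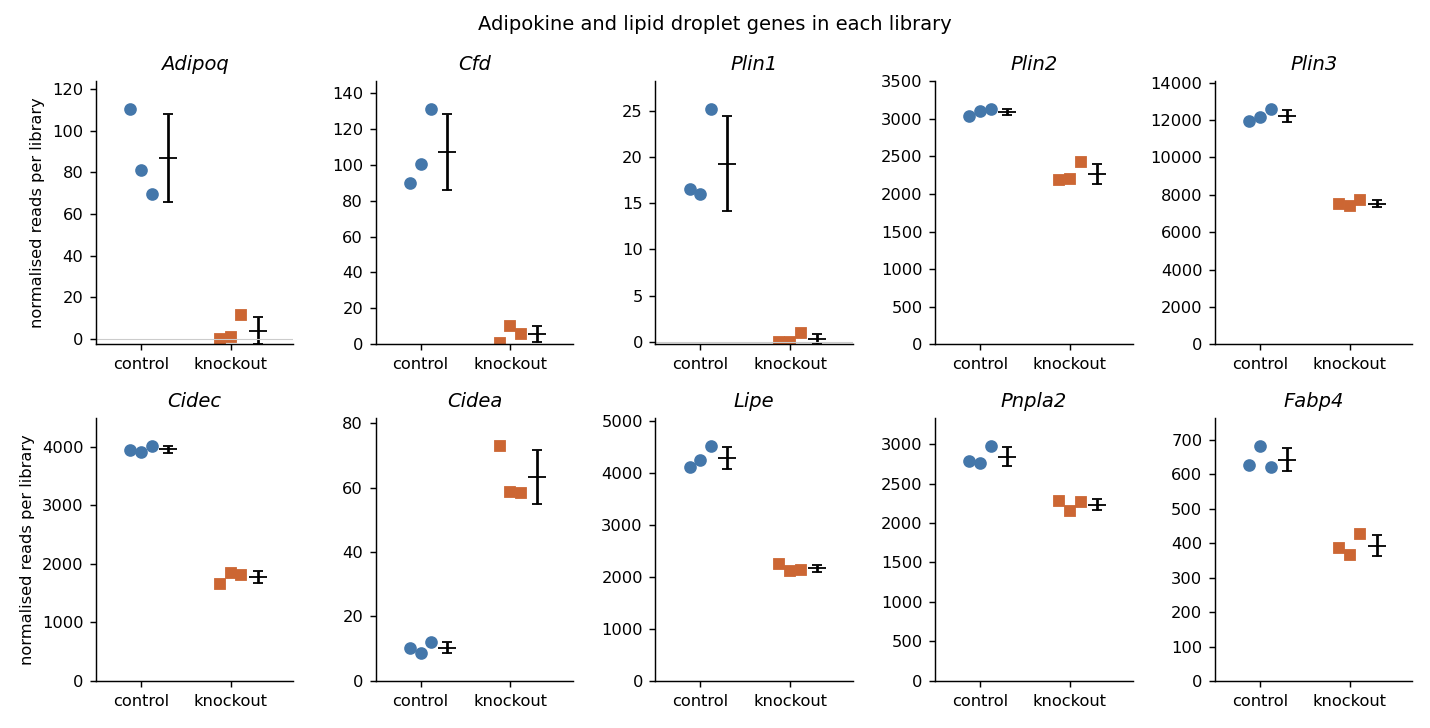
Normalised reads of each member (y axis) in the 3 control libraries (blue circles) and the 3 knockout libraries (orange squares), with the group mean and SD in black; each panel has its own linear axis that includes 0. Adipoq, Cfd and Plin1 lie near 0 in knockout, Cidea is higher there, and the other 6 are lower but none falls under 366.

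Among the adipokines, Adipoq (mm10, chromosome 16, 23146536 to 23158028, plus strand, protein coding) stood at 110.5, 81.2 and 69.5 normalised reads in the control libraries and at 0, 1.01 and 11.4 in the knockout libraries. A count of 0 in the first knockout library still allows up to 2.70 normalised reads. The log2 fold change, a difference of group means of log2(value + 1), was -4.89 ± 0.72 (SE, 3 against 3 libraries). It was -5.93 without the third knockout library, which held 12 of the group's 13 reads, and -4.11 without the first. Cfd (chromosome 10, 79890853 to 79892655, plus strand) stood at 89.8, 100.5 and 131 in control and 0.900, 10.1 and 5.72 in knockout, a log2 fold change of -4.36 ± 0.49 that became -3.63 without the first knockout library. In recovered reads, the ratio of control to knockout was 21.1 for Adipoq (95% exact counting interval 12.1 to 40.1) and 19.9 for Cfd (12.2 to 34.6). Means of logs weigh the libraries near 0 heavily, so the log2 fold changes of these 2 genes need not match the read ratios. In this bulk tissue, fewer cells of a type and less RNA per cell cannot be told apart.

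The ratio of the adipokines varied among libraries of 1 genotype. The first control library had the highest Adipoq and the lowest Cfd of its group, with 107 and 87 reads, and the third had the reverse, with 69 and 130 reads. The ratio of Adipoq to Cfd was 1.23, 0.808 and 0.531 in the control libraries. In knockout it was 0, 0.100 and 2.0, on 1, 11 and 18 reads of the pair.

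Among Plin1, Plin2 and Plin3, the adipocyte coat gene Plin1 (chromosome 7, 79720218 to 79732903, minus strand) was the scarcest. It stood at 16.5, 16.0 and 25.2 in control and at 0, 0 and 0.954 in knockout, where a single read was counted over the group. The ratio of control to knockout was 60.9 with a counting interval of 10.5 to 2448, and the log2 fold change was -3.99 ± 0.71. Plin2 and Plin3 were present at far higher levels in every library. Plin2 stood at 3044, 3101 and 3128 in control and 2184, 2201 and 2423 in knockout (log2 fold change -0.45 ± 0.05). Plin3 stood at 11929, 12144 and 12584 in control and 7517, 7380.4 and 7705 in knockout (-0.70 ± 0.04). Scaled to exon length, Plin3 made up 78.5% ± 0.239 of the reads of these 3 perilipins in control and 75.5% ± 0.751 in knockout (SD, n = 3 libraries per group), and Plin2 made up 21.4% ± 0.263 and 24.5% ± 0.747. Plin1 was 0.100% ± 0.0244 of them in control and 0.00251% ± 0.00435 in knockout. The message of these 3 genes was thus almost wholly of Plin2 and Plin3, which are not particular to adipocytes. Plin4, listed among the other adipocyte genes, is outside this sum. It stood at 77.1 ± 5.24 normalised reads per kilobase in control and 44.1 ± 5.92 in knockout.

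The droplet fusion genes went opposite ways and neither followed the adipokines. Cidec, which builds the single large droplet of white adipocytes, stood at 3944, 3911 and 4017 in control and 1652, 1848 and 1810.4 in knockout (log2 fold change -1.16 ± 0.05). It had 1652 normalised reads in the knockout library in which no Adipoq read was found. In control, there were 35.7 to 57.8 normalised reads of Cidec for each of Adipoq. Cidea, known from brown adipocytes, stood at 10.3, 8.55 and 12.1 in control and 72.9, 58.5 and 58.2 in knockout, a log2 fold change of 2.51 ± 0.32 that put the group means 6.12-fold apart. Its gene overlaps an antisense transcript with 1 to 4 reads in any library, and the strand setting of the counting is not given in the sources used here. Although both were listed as adipocyte genes, neither followed Adipoq, Cfd and Plin1 in these libraries, and which cells expressed them was not measured. Cidec (chromosome 6, 113424634 to 113435760, minus strand) has alternative starts, from which adipocytes and liver are known to make different forms, and the gene-level counts do not tell them apart.

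Both lipases were lower, Lipe more so than Pnpla2. Lipe, on chromosome 7 (25379527 to 25398710, minus strand), stood at 4116, 4244 and 4522 in control and 2245, 2117 and 2133 in knockout (log2 fold change -0.99 ± 0.05). Pnpla2, on the same chromosome (141455198 to 141460743, plus strand), stood at 2786, 2762 and 2976 in control and 2284, 2154 and 2261 in knockout (-0.35 ± 0.05). Within a library there were 1.48 to 1.54 normalised reads of Lipe for each of Pnpla2 in control and 0.943 to 0.983 in knockout. Lipe overlaps an antisense gene that had 8 to 28 reads per library, against 2099 or more for Lipe.

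Fabp4, a carrier of fatty acids inside adipocytes and capillary endothelium, stood at 627, 683 and 620.4 in control and 386, 366 and 426 in knockout (log2 fold change -0.71 ± 0.09). It thus kept 61.1% of its control mean while Adipoq kept 4.77%. Among markers of its other known sources, those of endothelium were mixed and those of macrophages fell or did not pass. Over all genes tested, 30.9% passed as lower and 31.6% as higher. Of 8 endothelial markers 3 rose and 2 fell, with a summed level of 2525 to 2606 in control and 3144 to 3332 in knockout. Of 5 macrophage markers 3 fell and none rose in limma, with sums of 7669.6 to 8019 and 4379 to 4475. None of these markers was at 0. Their part in the level of Fabp4 was not tested.

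**Figure D2:**
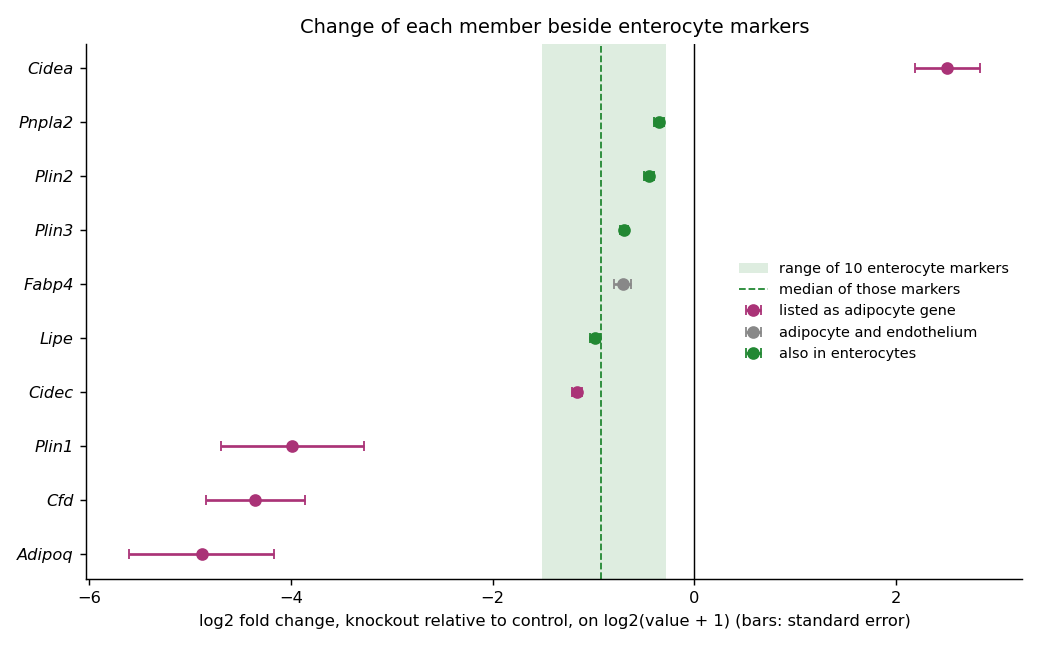
Log2 fold change of each member (x axis, values above 0 being higher in knockout, with 1 added before taking logs), with bars of 1 standard error; colours give the cell types listed for each gene, and the green band and dashed line give the range and median of 10 enterocyte markers. Cidec and 5 other members lie inside the band, between -1.16 and -0.35, while Adipoq, Cfd and Plin1 lie to its left and Cidea to the right of 0.

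Per kilobase of annotated exon, the members of highest level in control were Plin3 at 3227 ± 88.2 normalised reads, Cidec at 2132 ± 29.0, Pnpla2 at 941 ± 38.9, Plin2 at 880.2 ± 12.2 and Lipe at 729.5 ± 35.3 (SD, n = 3). Fabp4 followed at 143 ± 7.67, Cfd at 116 ± 23.1, Adipoq at 63.0 ± 15.3, Cidea at 9.26 ± 1.59 and Plin1 at 4.14 ± 1.11. In this order only Fabp4 and Cfd overlapped as neighbours. In knockout the leading 6 kept their order, Cidea came next at 56.7 ± 7.56, and Cfd (6.04 ± 4.98), Adipoq (3.01 ± 4.59) and Plin1 (0.0684 ± 0.118) overlapped from neighbour to neighbour. The exon length counts every annotated exon once, which understates genes with long rare exons.

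The changes of the enterocyte-shared members lay within the range of markers of the absorptive epithelium. All 10 enterocyte markers fell (limma adjusted p-values up to 0.043), where 30.9% of all genes tested passed as lower. Their median log2 fold change was -0.93, with a range of -1.51 to -0.28, and their summed level kept 48.1% of control. The count of 10 was 9 under TMM, with no filter, with a pseudocount of 10 and without any 1 of the control libraries, and 8 under quantile normalization, where Alpi was higher. Cidec, at -1.16, fell more than 8 of the 10 markers and Lipe more than 6, while Plin3 and Fabp4 fell more than 2, and Plin2 and Pnpla2 more than 1. The 4 enterocyte-shared members had a median of -0.57, and the 5 listed as adipocyte genes had a median of -3.99, against 0.01 over all genes tested. The summed level of those 5 was 4118 to 4254 in control and 1725 to 1918 in knockout, of which Cidec made up nearly all. Adipoq, Cfd and Plin1, grouped after their values were seen, summed to 217, 198 and 226 in control and to 0.900, 11.1 and 18.1 in knockout, which rest on 210, 185, 224, 1, 11 and 19 reads.

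Other adipocyte genes did not move as 1 group. Of 20 listed, 18 were in the table and 14 were tested; 9 fell, 1 rose and 4 did not pass, where 62.5% of all genes passed in either direction, and their median was -0.72. The leptin gene Lep stood at 23.7, 22.4 and 19.1 in control and had 1 read over the knockout group, at 0.954 in the third library. It passed the filter on low values through the control libraries alone, so no p-value is given. Its place among the 9 that fell, and in the median, follows from that filter. Car3, a carbonic anhydrase abundant in fat and muscle, fell from 348 ± 19.3 to 24.1 ± 9.10 (limma adjusted p = 1.11e-12), and Adrb3, the beta-3 adrenergic receptor of adipocytes, from 46.0 ± 14.8 to 10.7 ± 7.08 (limma adjusted p = 0.00049). The amino acid transporter Slc7a10 had 27 reads in control and 0 in knockout, and Retn, which encodes resistin, had 44 and 1. Adig had 20 and 15 reads and Mrap had 31 and 9, and for both of these the groups overlapped. All of these genes were too low to be tested. Gpd1, which makes the glycerol backbone of triglyceride, and the glycerol channel gene Aqp7 fell less, by 0.63 and 0.86 on the log2 scale (limma adjusted p = 6.49e-12 and 4.53e-11). The adipocyte regulators Pparg (595 ± 16.2 and 671 ± 55.5) and Cebpa (640.2 ± 18.9 and 700.3 ± 68.7) did not pass in limma (adjusted p = 0.067 and 0.18), nor did Tusc5, a regulator of glucose transport in fat, at 31.2 ± 12.4 and 28.0 ± 9.77 (adjusted p = 0.75). Acvr1c, a TGF-beta family receptor of adipocytes, rose from 40.2 ± 13.3 to 63.5 ± 8.99 (limma adjusted p = 0.029), but did not pass with DESeq2, under quantile normalization, or without the third control, first knockout or second knockout library.

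**Figure D3:**
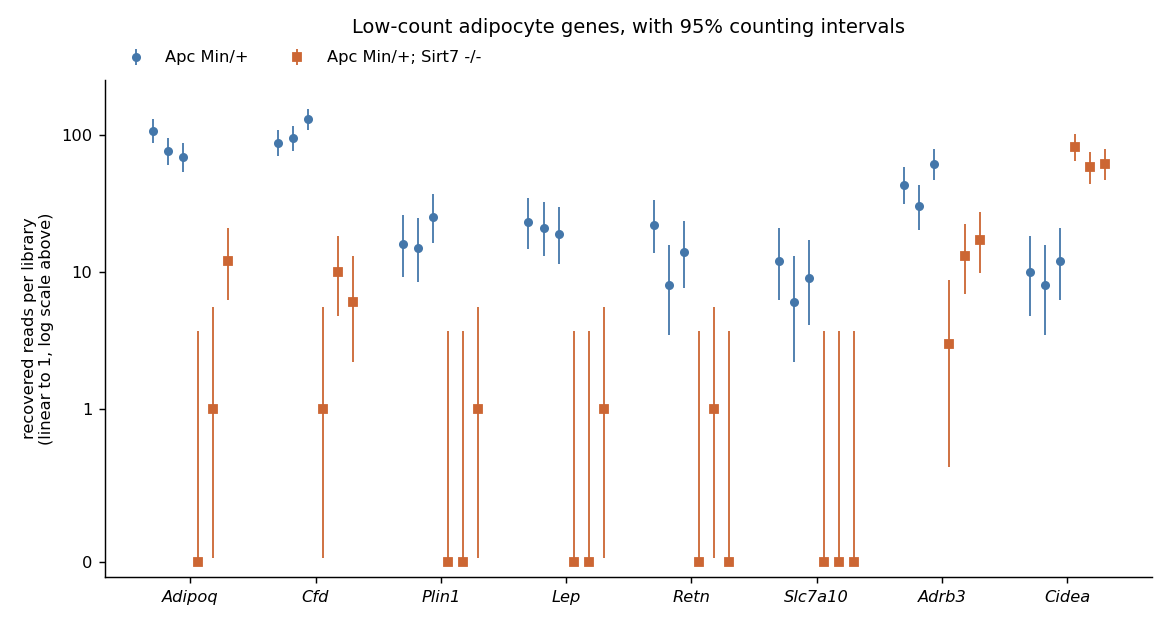
Recovered reads per library (y axis, linear up to 1 and logarithmic above) of 8 adipocyte genes, with 95% exact Poisson intervals for counting error; blue circles are the 3 control and orange squares the 3 knockout libraries. Lep, Retn and Slc7a10 fall to 0 or 1 read in knockout as Plin1 does, and Cidea goes the other way. Adig and Mrap, which were also scarce but whose groups overlapped, are not shown.

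Of 11 droplet surface genes tested, 8 fell, 1 rose and 2 did not pass, with a median of -0.23, where 30.9% of all genes passed as lower. The number lower was 6 or 7 when any 1 library was left out. Hsd17b11, a droplet-associated dehydrogenase, fell from 13572 ± 459 to 7734 ± 426, Cideb, the CIDE protein of liver and enterocytes, from 9295 ± 547 to 4666 ± 398, and Plin4 from 445 ± 30.3 to 255 ± 34.2 (limma adjusted p = 1.48e-13, 1.49e-11 and 9.85e-07). Hilpda, a droplet protein that inhibits the lipase of Pnpla2, rose from 42.9 ± 14.6 to 281 ± 20.5 (limma adjusted p = 6.21e-11). Plin5 was too low to be tested, with 3 reads in control and 26 in knockout.

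Among 11 regulators and enzymes of lipolysis, 7 fell, 2 rose and 2 did not pass, with a median of -0.45, beside the same shares of 30.9% lower and 31.6% higher over all genes; 5 to 7 were lower when 1 library was left out. Abhd5, the activator of the Pnpla2 lipase, did not pass, at 874 ± 76.3 and 898 ± 19.5 (limma adjusted p = 0.63). G0s2, the inhibitor of that lipase, fell from 100.1 ± 36.9 to 65.1 ± 4.87 (limma adjusted p = 0.039). Its groups overlapped, with the second control library at 69.5 and the third knockout library at 70.6. Abhd6, a monoacylglycerol lipase, fell from 3621 ± 32.6 to 2089 ± 114, and the lysosomal lipase Lipa from 4078 ± 165 to 2995 ± 221 (limma adjusted p = 1.93e-12 and 1.17e-07).

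In triglyceride synthesis 11 of 17 tested genes fell, 3 rose and 3 did not pass, with a median of -0.49, beside 30.9% lower and 31.6% higher over all genes. The acyltransferases Dgat2, Mogat2 and Dgat1, which act in triglyceride synthesis in enterocytes, fell by 1.41, 0.95 and 0.87 on the log2 scale. Acsl5, which activates fatty acids, fell from 79107 ± 1660.0 to 40625 ± 986 (limma adjusted p of at most 4.75e-15 for these 4). Acsl3, a relative of Acsl5, rose from 1162 ± 51.1 to 2462 ± 5.75 (limma adjusted p = 3.24e-14). Of the other fatty acid binding proteins, enterocyte Fabp2 and Fabp1 fell by 0.79 and 0.96, while Fabp5 rose from 306 ± 24.5 to 543 ± 49.1 and the bile acid carrier Fabp6 from 9.66 ± 2.12 to 184 ± 20.0 (limma adjusted p between 3.46e-12 and 2.12e-06).

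Of 6 receptor genes listed for adipokines and complement, 5 were tested. Of these 2 rose, 2 fell and 1 did not pass, beside 30.9% lower and 31.6% higher over all genes. The adiponectin receptor genes Adipor2 (12682 ± 209.9 and 11129 ± 537) and Adipor1 (3771 ± 14.2 and 3479 ± 187) fell slightly (limma adjusted p = 0.00025 and 0.031), but Adipor1 did not pass under TMM scaling or with edgeR, and under quantile normalization neither passed and both turned slightly upward. Cdh13, which encodes the adiponectin-binding T-cadherin, rose from 61.9 ± 10.3 to 379 ± 40.0 (limma adjusted p = 1.17e-12). The leptin receptor gene Lepr rose from 295 ± 10.1 to 434 ± 35.7 (limma adjusted p = 3.9e-05). Among complement peptide receptors, C3ar1 did not pass, at 78.9 ± 12.6 and 84.2 ± 15.5 (limma adjusted p = 0.73). C5ar2 was too low for the filter, with 37 reads in control and 14 in knockout; with no filter 3 receptors were lower, C5ar2 among them.

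**Figure D4:**
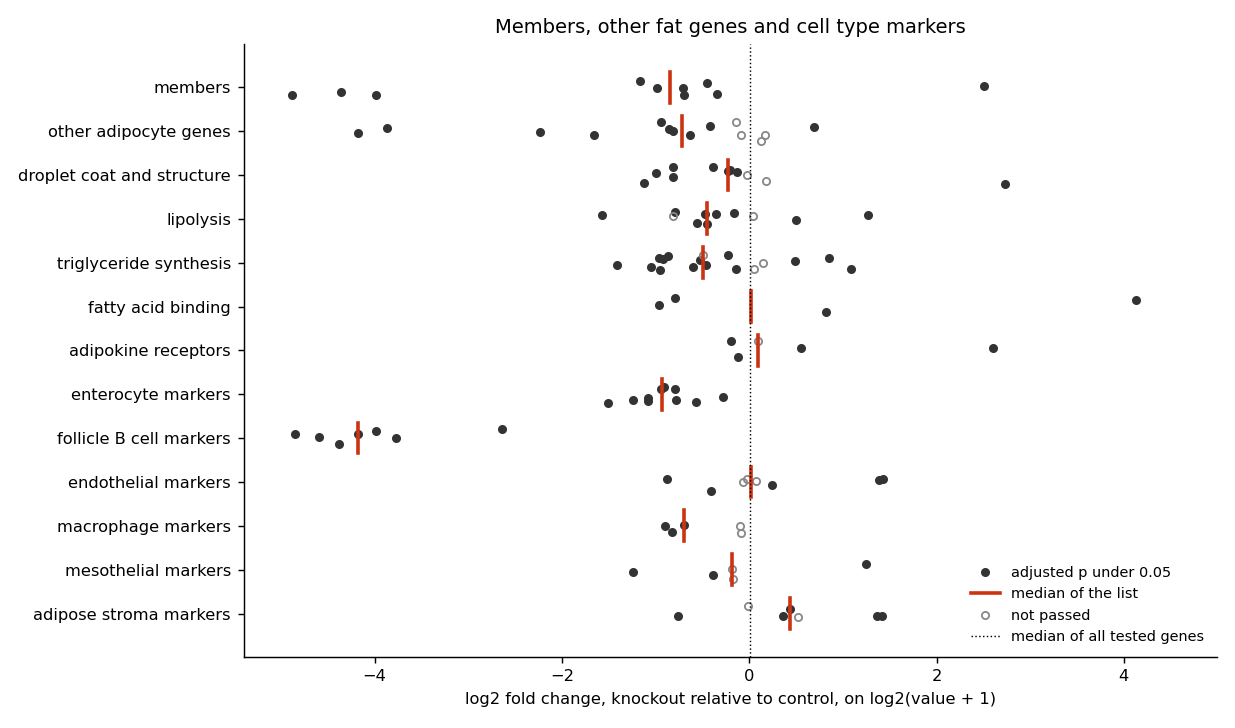
Log2 fold change, knockout relative to control, of each tested gene (points, filled where limma's adjusted p is under 0.05) in the members, the lists of fat genes and the markers of other cell types (rows), with the median of each list in red and that of all tested genes dotted. Follicle B cell markers lie as far to the left as Adipoq, Cfd and Plin1, with a median of -4.17, and enterocyte markers lie between -1.51 and -0.28.

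Markers of follicular B cells also fell far in knockout. All 7 fell, with a median of -4.17. Pax5 and Cxcr5 met the filter on low values through the control libraries, so their place in this count and median follows from that filter. The summed level of the 7 was 5275 to 5922 in control and 375 to 569 in knockout. None was without reads in knockout, although Pax5 was at 0 in the first knockout library. That library had the lowest knockout sum of these markers, and of Adipoq, Cfd and Plin1, and the third had the highest of both. The latter sum rests on 1, 11 and 19 reads, and Cfd alone was highest in the second knockout library. In control the lowest sums fell in different libraries, the first for these markers and the second for Adipoq, Cfd and Plin1. No link is read from this order. Likeness over the 6 libraries was measured by the root mean square difference of centred log2 values. Only 14750 named genes that were tested were compared, with the members left out. Cfd, Plin1 and the untested Retn and Slc7a10 therefore could not appear. Those closest to Adipoq were Haao (0.692), Pax5 (0.744), Fcer2a (0.781), Bfsp2 (0.817) and Lep (0.863). Those closest to Plin2 were Nadsyn1, Slc22a18, Reep6, H2afv and Ap1g2, at 0.0216 to 0.0298. Mesothelial markers, which cover gut wall and mesentery, summed to 419 to 517 in control and 492 to 591 in knockout, with 1 of 5 higher and 2 lower (1 lower with TMM, edgeR or DESeq2). Of 7 markers of adipose stroma 4 rose and 1 fell. Pi16, 1 of the 4 that rose, met the filter on low values through the knockout libraries, so its place in that count follows from the filter. The sum of the 7, 27366 to 28530.2 in control and 17967 to 20124 in knockout, was mostly Dpp4, which enterocytes also express. The 4 lymphatic markers in the table summed to 683 to 799 in control and 1217 to 1297 in knockout. Prox1, which enteroendocrine cells also express, was higher (11.5 ± 6.71 and 783 ± 31.1) and the other 3 were lower. Prox1 met the filter on low values through the knockout libraries, so its call as higher follows from that filter. The 6 smooth muscle markers summed to 42892 to 45226 in control and 33556 to 35848 in knockout, with 1 higher and 3 lower. Acinar markers of the pancreas, 7 genes, summed to 19.1 to 35.1 in control and 709.6 to 962 in knockout. All but Ctrb1 were under 10 in every control library and were tested only because of the knockout libraries, so no count of calls is given, and Prss2 and Cel were at 0 in the third control library. Beside the marker counts given here, 30.9% of all genes tested passed as lower and 31.6% as higher. The part of these cell types in the fall of Adipoq, Cfd and Plin1 was not tested.

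Library depth was 24987313 to 29603348 recovered reads, and Sirt7 itself stood at 2118 to 2244 in control and 219 to 240.4 in knockout, as labelled. The authors' deposited table gives smaller log2 fold changes for the scarce members, -1.09 for Adipoq, -2.33 for Plin1 and -3.47 for Cfd, than DESeq2 gave on the recovered reads, which were -4.39, -5.82 and -4.30. Whether the authors' fold changes were shrunken toward 0 is not given in the sources used here. For Cidec the authors' deposited table gives -1.16 and for Plin3 -0.70, the values found here.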

How the data were processed

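Libraries were TruSeq RNA preparations of Trizol-extracted RNA, per the labels' protocols. The submitters' processing notes name mm10, FastQC, TopHat2 2.1.1, HTSeq 0.6.1p1 and DESeq2, with no roles. The authors' deposited table gave a signal for each gene and library, namely reads scaled by a size factor of that library. Per the file headers it also held their mean signal, log2 fold change, standard error, Wald score, and p-values. A date replaced the symbol in 23 rows, which were tested unnamed. All values were whole multiples of 1 step per library within 0.01, so whole reads were recovered.

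Genes of at least 10 in at least 3 libraries were tested with limma 3.58.1 (R 4.3.3, trend and robust) on log2(value + 1), knockout relative to control, with Benjamini-Hochberg adjustment over 16600 genes. The step was tested on simulated data. Positions and exon lengths are from GENCODE M21 (GRCm38). Alternatives used TMM, quantile normalization, other filters and pseudocounts, a replicate block, each library left out, edgeR 4.0.16 and DESeq2 1.42.0. Members and lists were chosen with earlier results of these data known. Named genes are all members, up to 4 per list by smallest p with genes a result turns on, and the 5 closest in pattern to Adipoq and Plin2. Of these, Slc7a10, Retn, Adrb3, Lep, Tusc5, Acvr1c, Pparg, Cebpa, Abhd5, G0s2, Plin5, Acsl3, Fabp5, C3ar1, C5ar2, Alpi, Prox1 and Dpp4 were in part named after their values were seen. Adig, Mrap, Cxcr5 and Pi16 were likewise named after their values were seen. Intervals and floors (3 reads) cover counting error only, since reads are not independent molecules.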

Additional observations from a re-analysis of the deposited data

How the results depend on the processing

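All 10 members kept their direction and passed in every alternative run in which they were tested. They were chosen with this contrast in view, and Plin1 entered the main test through the control libraries alone, so their passing is a description. Plin1 was not tested with the filter at 50, which left 8 lower. Quantile normalization lowered the median of all genes by 0.15, gave the enterocyte-shared members a median of -0.39 and put the summed level of the 5 listed adipocyte genes at -1.08, against -1.18. The median of those 5 was -2.76 with the filter at 50, as Plin1 left the list, and -1.49 with a pseudocount of 10, which shrinks low genes. Counts that moved were small. Adipokine receptors lower in knockout numbered 1 under TMM and edgeR and 0 under quantile normalization, against 2. Other adipocyte genes higher numbered 2 under TMM and edgeR and 0 under DESeq2, against 1. Lipolysis genes higher numbered 1 under quantile normalization, against 2, and droplet genes higher numbered 2 with no filter, against 1. Of the cell type markers, mesothelial genes lower numbered 1 under TMM, edgeR, DESeq2, no filter and non-robust variances, against 2, and under quantile normalization 2 smooth muscle genes (against 1) and 1 enterocyte gene (against 0) were higher. Leaving out each library in turn gave 1 to 2 receptors lower, 0 to 1 other adipocyte genes higher, and 1 to 2 endothelial and mesothelial genes lower. With the replicate number as a block, 9 members were lower and 1 higher, and 5251 genes rose and 5151 fell, against 5248 and 5133. What a shared replicate number means is not given in the labels. The correlation of deviations between same-numbered libraries was 0.00032, 0.0358 and -0.0063. With 3 libraries per group, these values cannot show whether such libraries shared more than a number. Depth limits Adipoq, Cfd and Plin1 in knockout, which rest on 13, 17 and 1 reads.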
